A study of Mus musculus with 9 samples.

Results

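Cd160, the gene deleted in the donor mice of this study, lies on mouse chromosome 3, and 44 genes around it were examined as a physical neighbourhood. They were picked from the 23415 rows of the deposited expression table because they lie within about 2 Mb of Cd160 and because Tmod4, near the far end of the interval, had been seen at a higher level in knockout libraries, so the contrast between the groups was itself used in the choice. All 44 members mapped to chromosome 3, between positions 95111042 and 96905346 of GRCm38, a stretch of 1794 kb. Of these, 42 lay below Cd160 and 2 above it, with 25 on the plus strand and 19 on the minus strand. The table writes symbols in capitals (TMOD4, VPS72, SCNM1), here given as mouse symbols, and its PRUNE and FAM63A are Prune1 and Mindy1. A level of at least 1 TPM (a length-corrected share of each library's transcripts) in at least 4 libraries was reached by 37 members, out of 11495 genes in the whole table. Not every gene in this range is a member. Inside the stretch 28 other rows reached that level, and genes outside it, such as Pi4kb and Acp6, also lie within 2 Mb of Cd160.

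The libraries came from T cell transfer colitis, in which naive CD4+ T cells cause colon inflammation in a host without T or B cells of its own. The knockout group (4 libraries) held CD4+ T cells descended from CD160 knockout donors, and the control group (5 libraries) held those of wildtype littermates. In both groups the donor cells were CD4+ CD25- CD45RBhigh, the hosts were Rag1-/- mice that received them intraperitoneally, and the cells were sorted by CD4 from the colon lamina propria at peak disease. Rag1-/- hosts keep their own myeloid and natural killer cells. Age, strain and the deleted part of Cd160 are not given in the sources used here. The labels do not say whether each library came from its own recipient, so the p-values below measure only the spread between libraries, which may be technical.

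CD160 is a cell-surface receptor of the immunoglobulin superfamily on T and natural killer cells whose ligand HVEM belongs to the TNF-receptor family. Its chromosomal neighbours have no function in common: they include splicing factors, subunits of RNA polymerase III, chromatin regulators, Golgi proteins and enzymes of ubiquitin and lipid metabolism. Tmod4 encodes a tropomodulin, a protein that caps the pointed ends of actin filaments, and it is known mainly from skeletal muscle, where it limits thin-filament length.

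The sequences below belong to Tmod4, on which the results turn, to a transcript close to it, and to Plekho1, another member above the controls in every knockout library, shown for its different base composition. The first 2, with each CpG in capitals, are bases before the start given for the gene in a promoter table from RefSeq (GRCm38.p6), trimmed to lie outside any GENCODE exon. RefSeq's widest span of each gene begins further upstream, by 1.72 kb for Tmod4 and 3.52 kb for Plekho1, so both stretches lie inside those spans. The Tmod4 stretch lies at chr3:95124264-95124475 on the plus strand, has 212 bases, 1 CpG and 50% G and C. The Plekho1 stretch lies at chr3:95996002-95996089 on the minus strand, has 88 bases, 17 CpG and 81.8% G and C. The last is the mature miR-8099, at chr3:95139131-95139151 on the minus strand, with its seed (bases 2 to 8) in capitals.
Tmod4: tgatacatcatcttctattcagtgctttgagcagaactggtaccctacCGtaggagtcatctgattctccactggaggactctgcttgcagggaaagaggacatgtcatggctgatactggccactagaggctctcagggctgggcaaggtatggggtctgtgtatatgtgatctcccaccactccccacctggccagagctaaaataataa
Plekho1: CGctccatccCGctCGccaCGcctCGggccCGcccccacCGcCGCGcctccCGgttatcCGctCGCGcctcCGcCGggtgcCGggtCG
miR-8099: cCAAGGCGugggaaagguugu

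Control library 1 stood apart, with 7308 genes at 1 TPM or more, against 11088 to 11711 in the knockout libraries and 11182 to 11370 in the other control libraries. It was the lowest of the 9 libraries for 35 of the 37 tested members and the highest for 1. Differences of genes with library values in full are therefore mostly given over all 9 libraries and over the 8 without it. Ranges of differences for groups of members are given over the 8 only. Cd160 itself was at 14.47, 5.44, 7.51 and 18.76 TPM in knockout libraries 1 to 4, against 31.8, 65.89, 212.38, 41.49 and 151.24 TPM in control libraries 1 to 5. The groups did not overlap, and every knockout library kept some Cd160 signal. Its log2 difference (knockout minus control, on log2(TPM + 1), which understates changes of low genes) was -2.79 (SE 0.64), with an exact two-sided permutation p of 0.0159, the smallest this design allows, and a limma adjusted p of 0.572 over all tested genes. Without control library 1 the difference was -3.11 (SE 0.54), with an exact p of 0.0286, again the smallest possible, and a limma adjusted p of 0.113. A row for the reporter tdTomato, which the labels do not mention, was listed at 0 in all 4 knockout libraries, against 2.52, 8.78, 7.45, 8.45 and 5.17 TPM in the control libraries. Loss of Cd160 and any other genetic difference between the donor groups cannot be told apart here. In control libraries 3 and 5, highest for Cd160, 2 CD8 T cell markers summed to 85.59 and 87.43 TPM, against at most 33.76 TPM in knockout. Of these 2, Cd8b1 was low there, at 4.42 and 1.31 TPM. The 4 natural killer cell markers summed to 42.4 and 5.46 TPM there, against at most 9.48 TPM in knockout. The part of such cells in the Cd160 values was not tested.

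Tmod4 stood out among the 44 genes. It was at 5.92, 7.66, 9.47 and 4.75 TPM in the knockout libraries, against 0.09, 0.32, 0.77, 0.45 and 1.02 TPM in the control libraries. Each knockout library lay above every control library with no value in the gap between 4.75 TPM, the lowest in knockout, and 1.02 TPM, the highest in control. Tmod4 averaged 6.95 ± 2.06 TPM over the 4 knockout libraries and 0.53 ± 0.368 TPM over the 5 control libraries (mean ± SD). The log2 difference was 2.37 (SE 0.29), and 2.26 (SE 0.23) without control library 1, given as a description because this value led to the choice of the members. All 4 knockout libraries but only 1 control library reached 1 TPM, so Tmod4 entered the tested set through the group in which it was higher. The TPM file keeps no read depth, so the counting error behind such low values is unknown.

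**Figure D1:**
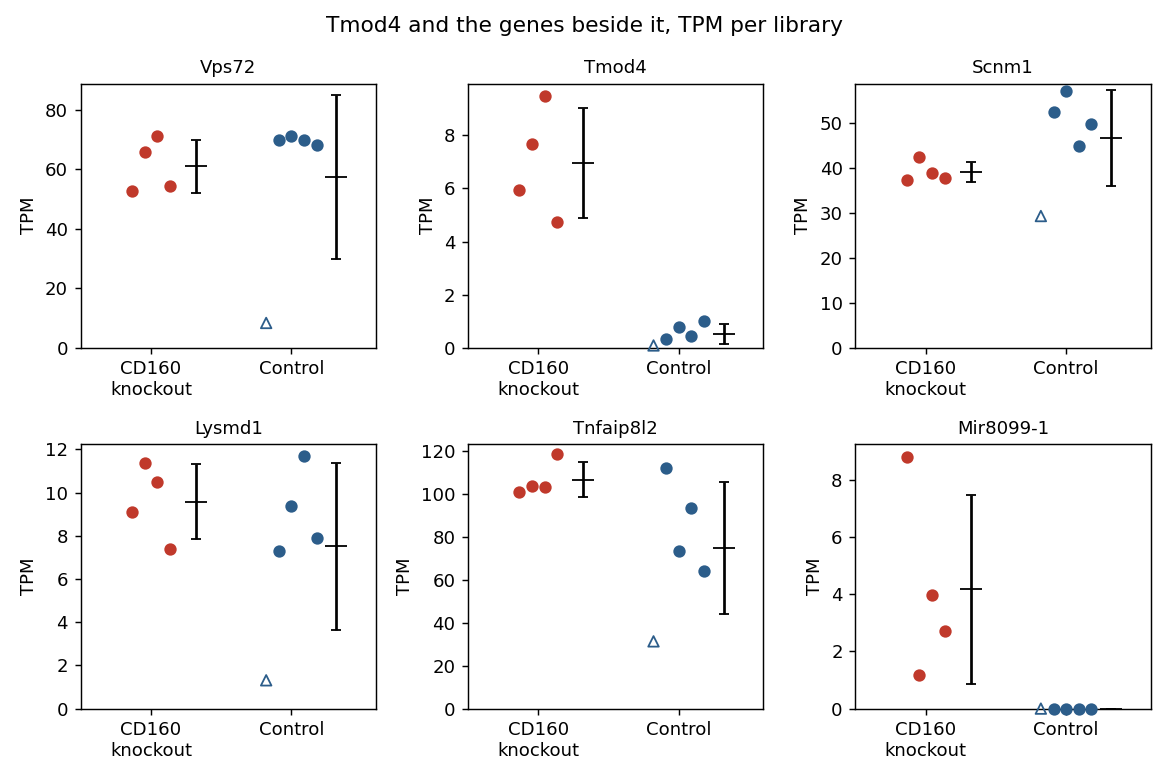
Each panel plots TPM per library for Vps72, Tmod4, Scnm1, Lysmd1, Tnfaip8l2 or Mir8099-1, CD160 knockout left of Control, with points for libraries, a bar for mean ± SD and an open triangle for control library 1. The 4 Tmod4 knockout points sit between 4.75 and 9.47 TPM, above all 5 control points, while the knockout and control points of Vps72 and Lysmd1 overlap.

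The genes on either side of Tmod4 did not share this pattern. Vps72, whose protein is a subunit of complexes that deposit the histone variant H2A.Z, was at 52.63, 65.84, 71.19 and 54.47 TPM in the knockout libraries, against 8.37, 69.9, 71.24, 69.84 and 68.23 TPM in the control libraries. Apart from control library 1, the control libraries lay within a narrow band and the knockout libraries fell in or below it. The log2 difference was 0.38 (SE 0.63) over 9 libraries and -0.20 (SE 0.11) over 8. By RefSeq the end of Vps72 and the start of Tmod4 share 253 bp on the same strand, while in GENCODE vM21 the genes are 1424 bp apart. Reads in that shared stretch could be counted to either gene, and their part in the Tmod4 values was not tested.

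On the other side lies Scnm1, a factor of the minor spliceosome, 509 bp beyond Tmod4 by RefSeq and 326 bp by GENCODE. It was at 37.24, 42.3, 38.8 and 37.82 TPM in the knockout libraries, against 29.28, 52.41, 57, 44.83 and 49.64 TPM in the control libraries. Over all 9 libraries the groups overlapped through control library 1, and without it the 4 knockout libraries lay below the 4 control libraries. The means were 39.0 ± 2.27 TPM in knockout libraries and 51.0 ± 5.10 TPM in control libraries 2 to 5 (SD, n = 4 each). Its log2 difference was -0.22 (SE 0.37), and -0.37 (SE 0.10) without control library 1, opposite in sign to that of Tmod4.

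Lysmd1, which encodes a protein with a LysM domain, was at 9.08, 11.35, 10.5 and 7.4 TPM in the knockout libraries, against 1.31, 7.3, 9.37, 11.71 and 7.9 TPM in the control libraries. Its groups overlapped, with log2 differences of 0.50 (SE 0.50) and 0.076 (SE 0.18). Tnfaip8l2 encodes TIPE2, an inhibitor of signalling from Toll-like and T cell receptors, and was at 100.99, 103.51, 103.43 and 118.73 TPM in the knockout libraries, against 31.33, 112.07, 73.38, 93.54 and 64.04 TPM in the control libraries. The knockout libraries were close to each other and the control libraries spread widely, with control library 2 inside the knockout range. Its log2 difference was 0.62 (SE 0.42) over 9 libraries and 0.34 (SE 0.16) over 8. Sema6c, a transmembrane semaphorin and the last member within 50 kb of Tmod4, was below the filter, at 0.02, 0, 0.05 and 0 TPM in the knockout libraries, against 0, 0.05, 0.04, 0.16 and 0 TPM in the control libraries.

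A transcript that is no member lies among these genes. The row for the hairpin Mir8099-1 (chr3:95139060-95139186, minus strand, 127 bp) was at 8.8, 1.16, 3.98 and 2.73 TPM in the knockout libraries and listed at 0 in all 5 control libraries. By GENCODE the hairpin falls within exon 3 of Lysmd1, in its 3' UTR and on the opposite strand, 9850 bp beyond the end of Tmod4. The full-length protocol named in the labels does not keep the strand, so reads from Lysmd1 and from the hairpin cannot be told apart. The row for Mir8099-2 on chromosome 12, whose mature sequence is identical, held the same 9 values, so neither locus can be named as the source. Libraries of polyadenylated RNA also do not measure mature miRNAs.

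Members were read against all tested genes. In the limma fit, 2 of 11495 genes passed an adjusted p of 0.05 (0.0174%, with 0.0087% higher in knockout), and 1 of them, Tmod4, was among the 37 tested members. The other was the row for the reporter tdTomato, lower in knockout, with a log2 difference of -2.81 (SE 0.32). Without control library 1, 3 of 11457 genes passed (0.0262%, with 0.00873% higher in knockout), and Tmod4 was again the 1 member. The Tmod4 call was lost with a pseudocount of 0.1, without the filter, with the replicate number as a block, and on leaving out any of the 8 libraries other than control library 1. Since this contrast chose the members, nothing is read from these counts. Groups did not overlap for 4 of 37 members (10.8%) over 9 libraries, all higher in knockout, against 4.93% of all tested genes, of which 3.88% were higher and 1.05% lower. Over 8 libraries they did not overlap for 5 of 37 (13.5%), 4 higher and 1 lower, against 7.02% of all tested genes, with 4.01% higher and 3.01% lower. The contrast is the same, so nothing is read from these shares either. Those higher in knockout were Tmod4, Mindy1, Plekho1 and Rnf115 in both cases, and Scnm1 was the 1 member lower, over 8 libraries only.

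Medians and directions of the members come from the same contrast, so they are given beside those of all genes as a description only. The median log2 difference of the 37 tested members was 0.61 over 9 libraries, against 0.46 for all tested genes, and -0.013 against -0.014 without control library 1. Over 8 libraries 32 members (86.5%) lay within 0.5 of 0 on the log2 scale, the same share as of all genes (86.5%). The 5 outside were Tmod4, Ecm1, Adamtsl4, Plekho1 and Ctsk. Of the 37 members 17 had a positive difference (45.9%), against 47.5% of all genes, and with control library 1 included the count was 34 (91.9%), against 86.7%.

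**Figure D2:**
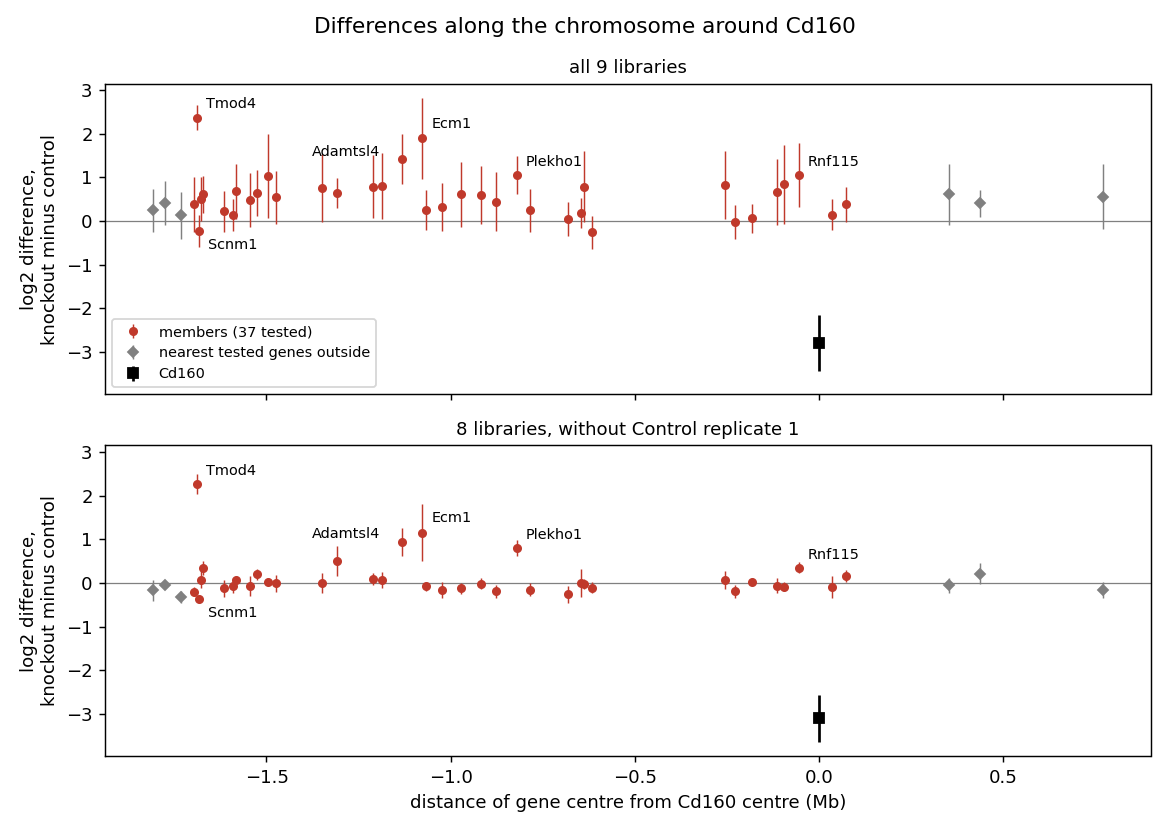
The log2 difference of each of the 37 tested members (knockout minus control, on log2(TPM + 1), bars ± SE) is plotted against the distance of its centre from the centre of Cd160 in Mb, over all 9 libraries above and over 8 below. Grey diamonds are the nearest tested genes outside and the black square is Cd160; Tmod4 stands at 2.37 and 2.26 near the left end, and 32 members lie within 0.5 of 0 in the lower panel.

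Tmod4 lies 1669.6 kb below Cd160, and the 4 tested members nearest Cd160 were Pdzk1, Rnf115, Gpr89 and Polr3c, from 0.1 to 71.3 kb away. Pdzk1, a PDZ-domain scaffold of membrane transporters whose annotation begins 0.1 kb from Cd160, was at 2.23, 2.23, 1.6 and 3.48 TPM in the knockout libraries, against 0.51, 1.51, 3.55, 2.01 and 3.66 TPM in the control libraries. Its groups overlapped, with log2 differences of 0.15 (SE 0.36) and -0.10 (SE 0.26). The Golgi pH regulator Gpr89 was at 19.47, 22.56, 18.78 and 18.94 TPM in the knockout libraries, against 7.59, 15.75, 20.16, 15.52 and 19.92 TPM in the control libraries, with overlapping groups and differences of 0.38 (SE 0.40) and 0.16 (SE 0.13).

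Polr3c, a subunit of RNA polymerase III, was at 53.75, 55.34, 54.13 and 46.34 TPM in the knockout libraries, against 1.28, 54.39, 65.21, 51.46 and 52.24 TPM in the control libraries. Its difference was 0.84 (SE 0.91) over 9 libraries and -0.087 (SE 0.11) over the 8 without control library 1, and the groups overlapped in both. Rnf115, an E3 ubiquitin ligase, was at 23.73, 26.37, 30.24 and 22.11 TPM in the knockout libraries, against 0.77, 18.14, 20.25, 22 and 18.91 TPM in the control libraries. All knockout libraries lay above all control libraries, the nearest pair being 22.11 TPM in knockout library 4 and 22.0 TPM in control library 4. Rnf115 averaged 25.6 ± 3.55 TPM over the 4 knockout libraries and 16.0 ± 8.65 TPM over the 5 control libraries (mean ± SD), and the log2 difference was 1.06 (SE 0.73) over 9 libraries and 0.35 (SE 0.13) over 8.

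In windows of the same chromosome, the 16 tested genes in the 2 Mb below the stretch had a median log2 difference of -0.16 over 8 libraries and 0.25 over 9. The 11 tested genes in the 2 Mb above Cd160 had medians of -0.0072 and 0.51, and the 448 tested on the rest of the chromosome had a median of 0.01 over 8 libraries (449 genes and 0.48 over 9). Groups did not overlap, over 8 libraries, for 12.5%, 0% and 7.37% of these genes. The 3 tested genes next below the stretch were Pip5k1a, Psmd4 and Zfp687, with differences of -0.32, -0.055 and -0.17 over 8 libraries. The 3 next above were Acp6, Bcl9 and Chd1l, at -0.056, 0.22 and -0.17, and the groups of all 6 overlapped.

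The members that bear on the actin cytoskeleton were Tmod4 and Cdc42se1, a small effector of the GTPase Cdc42. Cdc42se1 was among the 3 members of highest mean level, at 109.77, 115.98, 111.19 and 103.35 TPM in the knockout libraries, against 11.97, 90.52, 114.46, 107.33 and 106.15 TPM in the control libraries. Control libraries 1 and 2 lay below every knockout library and the other 3 control libraries within the knockout range, with log2 differences of 0.68 (SE 0.63) and 0.077 (SE 0.09). Among the other tropomodulins, the widely expressed Tmod3 was at 53.67, 62.12, 55.82 and 50.56 TPM in knockout libraries, against 4.55, 43.27, 51.61, 50.76 and 55.62 TPM in control libraries, with differences of 0.78 over 9 libraries and 0.14 over 8. Tmod1 was at 0.2, 2.48, 1.74 and 1.33 TPM in knockout libraries, against 15.3, 0, 0.64, 0 and 0.27 TPM in control libraries. Tmod2 ranged from 0.2 to 0.58 TPM in knockout libraries and from 0.08 to 0.61 TPM in control libraries. Of 7 muscle markers only Actn2 passed the filter, and Myog was listed at 0 in every library. The summed markers were 30.15 to 55.47 TPM in knockout libraries and 42.38 to 124.78 TPM in control libraries, most of it Actn2. Without Actn2 the other 6 summed to 1.75, 1.99, 4.13 and 2.73 TPM in the knockout libraries, against 0.15, 2.25, 2.42, 2.71 and 1.54 TPM in the control libraries, and the groups overlapped. Their part in the level of Tmod4 was not tested.

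RNA-processing members were 5, all tested and none called, with differences from -0.37 to 0.02 over 8 libraries. Besides Scnm1 they were the spliceosome components Sf3b4 and Prpf3, the exon-junction protein Rbm8a and Rprd2, which binds the tail of RNA polymerase II. Rbm8a ranged from 45.81 to 51.53 TPM in knockout libraries and from 41.75 to 51.19 TPM in control libraries, and among tested members its level in control library 1 was the nearest to the other control libraries. Sf3b4 lay at 57.01 to 64.94 TPM in knockout libraries and 49.95 to 68.5 TPM in control libraries 2 to 5. Prpf3 lay at 18.22 to 24.79 TPM in knockout libraries and 20.4 to 26.21 TPM in control libraries 2 to 5. Rprd2 lay at 6.58 to 9.66 TPM in knockout libraries and 6.69 to 10.86 TPM in control libraries 2 to 5. In all of them the ranges overlapped. Of the RNA polymerase III subunits, Polr3gl was at 27.65, 40.58, 45.79 and 34.62 TPM in the knockout libraries, against 22.97, 39.37, 44.83, 46.25 and 38.22 TPM in the control libraries. Its groups overlapped, with differences of -0.028 (SE 0.39) and -0.20 (SE 0.16), among the 3 lowest over 9 libraries.

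All 7 chromatin and transcription members were tested and none was called, with differences from -0.20 to -0.0038 over 8 libraries. Besides Vps72 these were the histone H3 lysine methyltransferase Setdb1, the dimer partner of hypoxia-inducible factors Arnt, the GABP subunit Gabpb2, the H2A.Z chaperone Anp32e, the SUMO ligase and STAT inhibitor Pias3, and Mllt11, a small protein first known from leukaemia fusions. Anp32e ranged from 47.53 to 64.94 TPM in knockout libraries and from 6.21 to 77.8 TPM in control libraries. Arnt ranged from 14.07 to 21.89 TPM in knockout libraries and from 0.31 to 20.27 TPM in control libraries, where 0.31 TPM was control library 1. The ranges of both genes overlapped between the groups. Setdb1 lay at 10.22 to 14.1 TPM in knockout libraries and 8.52 to 14.84 TPM in control libraries 2 to 5. Pias3 lay at 19.15 to 23.78 TPM in knockout libraries and 15.91 to 28.47 TPM in control libraries 2 to 5. Those of Gabpb2 were lower, at 8.38 to 12.75 TPM in knockout libraries and 7.59 to 13.32 TPM in control libraries 2 to 5, and Mllt11 was the lowest of the 7, at 6.32 to 9.88 TPM in knockout libraries and 6.78 to 9.52 TPM in control libraries 2 to 5.

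The vesicle and Golgi members Vps45, Golph3l and Gpr89 differed by -0.16 to 0.16 over 8 libraries, and their groups overlapped. Vps45 lay at 10.22 to 14.86 TPM in knockout libraries and 11.15 to 14.91 TPM in control libraries 2 to 5. Golph3l lay at 19.54 to 27.76 TPM in knockout libraries and 17.88 to 22.93 TPM in control libraries 2 to 5. The synaptic vesicle protein Sv2a was under the filter, at 0.33 to 0.58 TPM in knockout libraries and 0.1 to 1.33 TPM in control libraries. Among 5 members of proteolysis and ubiquitin metabolism, with differences from -0.26 to 0.51 over 8 libraries, were the gamma-secretase subunit Aph1a and the deubiquitinases Otud7b and Mindy1. Aph1a lay at 30.84 to 39.05 TPM in knockout libraries and 29.36 to 40.58 TPM in control libraries 2 to 5. Otud7b lay at 2.56 to 3.29 TPM in knockout libraries and 2.35 to 4.81 TPM in control libraries 2 to 5. The groups of both overlapped. Mindy1, which trims ubiquitin chains, was at 11.23, 12.6, 10.43 and 11.42 TPM in the knockout libraries, against 1.25, 10.35, 9.66, 10.37 and 9.07 TPM in the control libraries. Its groups did not overlap, although 10.43 TPM in knockout library 3 and 10.37 TPM in control library 4 nearly met. The log2 difference was 0.65 (SE 0.52), and 0.19 (SE 0.12) without control library 1. By RefSeq, Mindy1 shares 1581 bp with Prune1, which is listed at 6.54 to 10.16 TPM in knockout libraries and 0.41 to 11.05 TPM in control libraries. Of the 44 members 15 share bases with another member, in 9 pairs, and their values are uncertain to that extent.

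Ctsk, the lysosomal protease cathepsin K, was at 0.88, 1.53, 2.19 and 2.35 TPM in the knockout libraries, against 0.17, 1.25, 0.05, 2.14 and 0.68 TPM in the control libraries. The groups overlapped widely, with differences of 0.64 (SE 0.34) and 0.51 (SE 0.34).

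Lipid and phosphoinositide members were 4, with differences from 0.0056 to 0.79 over 8 libraries and none called. Plekho1, a pleckstrin-homology protein that binds phosphoinositides, was at 24.74, 19.77, 26.44 and 26.12 TPM in the knockout libraries, against 4.85, 18.67, 9.85, 13.58 and 13.16 TPM in the control libraries. Every knockout library lay above every control library, with 19.77 TPM the lowest in knockout and 18.67 TPM the highest in control. Plekho1 averaged 24.3 ± 3.09 TPM over the 4 knockout libraries and 12.02 ± 5.10 TPM over the 5 control libraries (mean ± SD). The log2 difference was 1.06 (SE 0.43) over 9 libraries and 0.79 (SE 0.19) over 8. Cers2, the ceramide synthase of very long acyl chains, was among the 3 highest members, at 106.83, 125.76, 106.51 and 105.34 TPM in the knockout libraries, against 2.31, 106.57, 109.9, 106.21 and 112.47 TPM in the control libraries. Knockout library 2 was the highest, and the other knockout libraries lay close to control libraries 2 to 5. The difference of 1.04 (SE 0.97) became 0.027 (SE 0.08) without control library 1. Mtmr11, an inactive myotubularin-related phosphatase, was at 0.03 to 1.96 TPM in knockout libraries and 0.02 to 1.64 TPM in control libraries.

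The metabolic and phosphatase-control members Txnip, which binds thioredoxin and limits glucose uptake, Ensa, an inhibitor of protein phosphatase 2A, and Prune1 differed by -0.076 to 0.069 over 8 libraries. Txnip ranged from 69.19 to 130.34 TPM in knockout libraries and from 6.14 to 111.07 TPM in control libraries. Ensa lay at 54.64 to 59.68 TPM in knockout libraries and 35.25 to 65.61 TPM in control libraries 2 to 5. The groups of all 3 overlapped. The mitochondrial members differed by -0.11 (Bola1) and -0.078 (Tars2) over 8 libraries. They were Tars2, the threonyl-tRNA synthetase of mitochondria, and Bola1, a protein of mitochondrial iron-sulfur biology. Tars2 lay at 34.11 to 39.81 TPM in knockout libraries and 35.88 to 44.91 TPM in control libraries 2 to 5. Bola1 was at 27.81, 31.04, 40.37 and 38.19 TPM in the knockout libraries, against 61.95, 36.23, 38.02, 35.39 and 37.83 TPM in the control libraries, the 1 tested member with its highest value in control library 1, and its differences were -0.26 (SE 0.37) and -0.11 (SE 0.13).

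Adhesion, matrix and membrane genes numbered 6, of which 3 were tested and none called. Ecm1, an extracellular matrix protein also made by T helper 2 cells, had the highest mean level of all members, at 45.07, 174.83, 296.51 and 234.31 TPM in the knockout libraries, against 4.21, 147.56, 36.14, 108.55 and 37.93 TPM in the control libraries. Values spread widely within both groups, and knockout library 1 lay below control libraries 2 and 4. Ecm1 averaged 188 ± 107 TPM over the 4 knockout libraries and 66.9 ± 59.1 TPM over the 5 control libraries (mean ± SD), with log2 differences of 1.90 (SE 0.93) and 1.15 (SE 0.65). Adamtsl4, a matrix protein that binds fibrillin, was at 7.26, 8.67, 16.12 and 12.72 TPM in the knockout libraries, against 0.18, 7.98, 3.4, 6.98 and 3.36 TPM in the control libraries. Knockout library 1 was below control library 2, so the groups overlapped. Adamtsl4 averaged 11.2 ± 4.02 TPM over the 4 knockout libraries and 4.38 ± 3.14 TPM over the 5 control libraries (mean ± SD), with differences of 1.42 (SE 0.58) and 0.94 (SE 0.32).

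**Figure D3:**
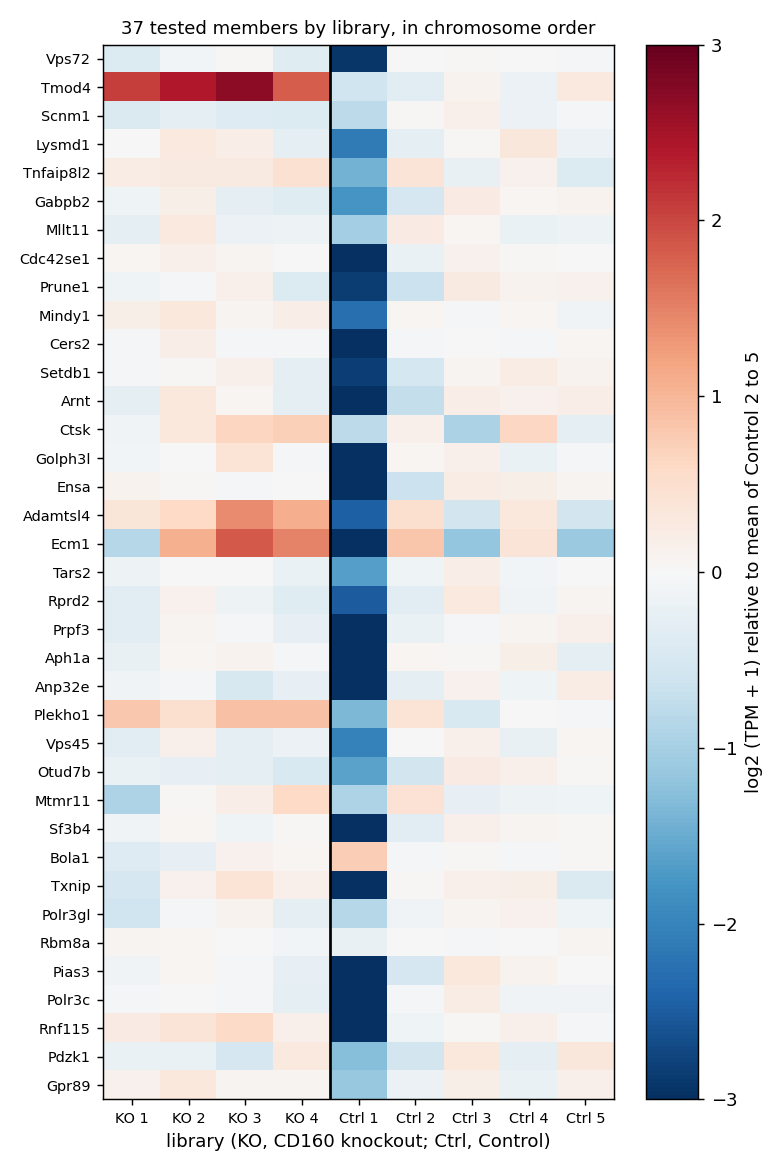
Colours give log2(TPM + 1) of each of the 37 tested members relative to its mean over control libraries 2 to 5, by library, with members in chromosome order and CD160 knockout columns (KO) left of Control columns (Ctrl). Colours saturate at 3 in either direction; the Tmod4 row is red in all 4 knockout columns, and the column of control library 1 is blue for most members.

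The 7 members below the filter were Sema6c, Anxa9, Sv2a, Lix1l, Itga10, Ankrd35 and Nudt17. Anxa9, an annexin, was at 0.69, 1.17, 1.07 and 0.73 TPM in the knockout libraries, against 0.17, 0.44, 0.08, 0.52 and 0.49 TPM in the control libraries. Its groups did not overlap, but it reached 1 TPM in only 2 libraries, was not tested and is not among the counts above. The integrin subunit gene Itga10 stayed at or below 0.2 TPM and Lix1l, which is little described, at or below 0.58 TPM. The ankyrin-repeat gene Ankrd35 was at 0.43 to 1.37 TPM in knockout libraries and 0.05 to 0.77 TPM in control libraries, and the Nudix hydrolase Nudt17 at 0.59 to 1.42 TPM in knockout libraries and 0.04 to 0.98 TPM in control libraries.

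Markers of macrophages, a list of 10 genes, and of stroma, a list of 5, were read beside the members by library. The summed macrophage markers were at 10507.85, 8508.68, 13706.62 and 15240.44 TPM in knockout libraries 1 to 4, against 1003.76, 9423.93, 2538.24, 5380.12 and 2353.17 TPM in control libraries 1 to 5. All 10 macrophage markers passed the filter and had a positive difference in both fits, none was called, and none was at 0. The stroma markers summed to 44.2, 168.67, 210.19 and 346.1 TPM in the knockout libraries, against 3.62, 99.12, 55.61, 123.79 and 53.73 TPM in the control libraries. All 5 had a positive difference in both fits and none was called. Knockout library 1 was the lowest knockout library for this sum, as it was for Ecm1, Adamtsl4 and Ctsk. Plekho1 was instead lowest in knockout library 2, at 19.77 TPM against 24.74 TPM in knockout library 1. Knockout library 2 was also the lowest knockout library for the macrophage sum, at 8508.68 TPM. In bulk libraries fewer cells of a type and less RNA per cell cannot be told apart. With the mean of the macrophage markers as a covariate and control library 1 left out, the log2 difference was -0.77 for Ecm1, 0.045 for Adamtsl4, -0.27 for Ctsk, 0.46 for Plekho1 and -0.056 for Tnfaip8l2. In the same fit it was 2.48 for Tmod4, 0.15 for Mindy1, 0.32 for Rnf115 and -0.33 for Scnm1. The macrophage markers themselves differed between the groups, so this fit cannot fully separate macrophage RNA from group, and its values are a description. The part of macrophage or stromal RNA in the members' differences was not tested. The defining markers of CD4 T cells were present, at a summed 5661.72 to 7477.79 TPM in knockout libraries and 2408.89 to 8059.36 TPM in control libraries. Control libraries 2 to 5 spanned 7138.94 to 8059.36 TPM, and over 8 libraries 0 of the 9 markers had a positive difference, with none called.

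**Figure D4:**
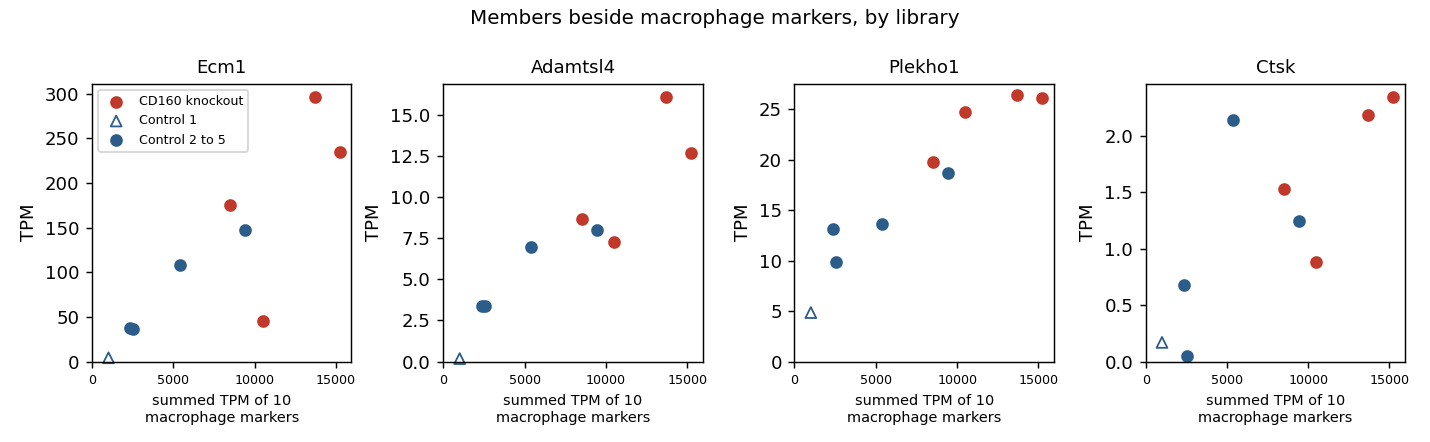
Each point is a library, with the summed TPM of the 10 macrophage markers on the x axis and the TPM of Ecm1, Adamtsl4, Plekho1 or Ctsk on the y axis (red, CD160 knockout; blue, Control; open triangle, control library 1). Control library 2, whose marker sum of 9423.93 TPM lies within the knockout range, has the highest Ecm1, Adamtsl4 and Plekho1 values of the control libraries. For Ctsk the highest control value is 2.14 TPM in control library 4, against 1.25 TPM in control library 2.

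Control library 1 was low for members as for the rest of the table, and by unequal amounts. As a percent of the mean of control libraries 2 to 5, its level had a median of 11.4% over the 37 tested members, from 1.77% for Arnt to 168% for Bola1. For 5 members whose longest transcript is under 1500 bp the median was 54.5%, for 19 of 1500 to 3000 bp it was 8.91%, and for 13 of 3000 bp or more it was 8.28%. The same medians over all tested genes were 37.7%, 10.6% and 9.46%.

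**Figure D5:**
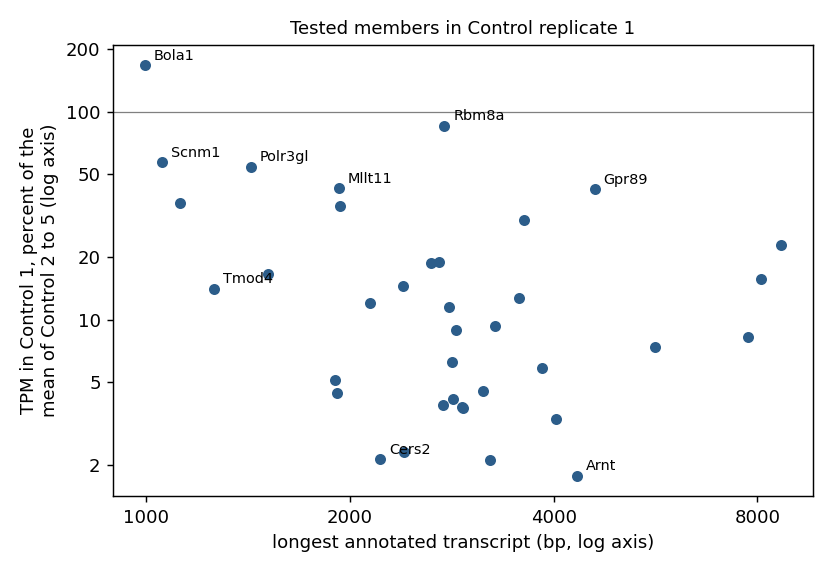
Each point is a tested member, with the longest transcript in bp on the x axis and the level in control library 1 as a percent of the mean of control libraries 2 to 5 on the y axis, both on log scales. Bola1 stands highest at 168% and Arnt lowest at 1.77%.

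The spread of the members among the other control libraries was close to that of all genes. Their median coefficient of variation over control libraries 2 to 5 was 16.1%, from 1.76% for Vps72 to 86.2% for Ctsk, against 19.0% for all tested genes. Their median level over the 8 libraries was 22.2 TPM, against 13.9 TPM for all tested genes, and 23 of the 44 members reached 10 TPM in all 8.

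Promoter sequence was compared over the 250 bases before each start in the RefSeq promoter table, for the 39 members matched by symbol (46 promoters). Of these starts, 31 lie inside the widest RefSeq span of their gene, some by only a few bases, so the windows stand for the table's starts and not for every start of a gene. A median of 11.5 CpG was found in them, against 15 in 11338 promoters of tested genes and 6 in all 32851 promoters. The letters CCGGAA, an ETS core, were found on either strand in 34.8% of member promoters, 22.8% of those of tested genes and 12.03% of all. The letters TATAAA were in 6.52%, 6.72% and 12.4%, and the E-box letters CANNTG in 54.3%, 57.8% and 66.2%. Matches to different motifs were counted separately and may overlap, and the shares describe the letters only. Over its 250 bases Tmod4 had 3 CpG, 2 E-boxes and neither of the other motifs, while Plekho1 had 45 CpG and none of the 3 motifs.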

How the data were processed

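Full-length cDNA libraries were made from polyadenylated RNA with a modified SMART-Seq2 method, per the labels' protocols, and 4 knockout and 5 control libraries were grouped by their titles. The authors deposited TPM values, RNA abundances corrected for transcript length. According to the submitters' processing notes, RSEM 1.2.31, Bowtie2 2.2.9, Trimmomatic 0.32 and the build GRCm38 were used; settings and gene annotation are not given in the sources used here. Read depth cannot be had from TPM, so it is unknown here and no counting interval is given, and in TPM a few abundant transcripts lower all others.

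Symbols were matched to RefSeq (22486 by symbol, 848 by synonym) or GENCODE vM21 (21), and 60 were not matched. Genes reaching 1 TPM in 4 or more libraries were fitted with limma 3.58.1 in R 4.3.3 (lmFit, eBayes with trend) on log2(TPM + 1), with Benjamini-Hochberg adjustment over all tested genes at 0.05. The procedure was run on simulated data with normal noise. Differences were put only into genes of higher mean level than Tmod4, so recovery at its level was not tested. Figures used Python 3.11.15 and matplotlib 3.10.9. An exact two-sided permutation test over libraries was run for Cd160 only.

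The members and lists, and the tests, were chosen with earlier results of these data known. Library values are printed in full for Tmod4 and members within 50 kb of it, the 4 tested members nearest Cd160, those whose groups do not overlap, the 3 of highest mean and the 3 of largest difference in each direction; Ctsk, Anxa9, Tmod1, Tmod3 and Mir8099-1 were added after their values were seen. Other settings were pseudocounts of 0.1 and 5, no filter, a filter of 5 TPM, median-of-ratios scaling, the replicate number as a block, each library left out, and, without control library 1, scaling, the block or the mean of the macrophage markers as a covariate.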

Additional observations from a re-analysis of the deposited data

Results flagged for a closer look

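Of 76 groups of library values (knockout or control, for 38 genes), 13 held a library far from the rest of its group by Dixon's 95% limit, where chance gives about 1 in 20. Control library 1 was the library in 11 of them. It lay far below the other control libraries for Vps72 at 8.37 TPM, Cdc42se1 at 11.97 TPM, Mindy1 at 1.25 TPM, Cers2 at 2.31 TPM, Golph3l at 0.86 TPM and Tars2 at 11.79 TPM. It also lay far below them for Prpf3 at 0.88 TPM, Sf3b4 at 2.74 TPM, Polr3c at 1.28 TPM and Rnf115 at 0.77 TPM. For Bola1 it lay far above them, at 61.95 TPM. In the knockout group, library 4 stood above the others for Tnfaip8l2 at 118.73 TPM, and library 2 for Cers2 at 125.76 TPM.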

How the results depend on the processing

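The number of genes passing an adjusted p of 0.05, which was 2, became 1 with a pseudocount of 5, 0 without a filter, 0 with a filter of 5 TPM and 0 with the replicate number as a block, and it ranged from 0 to 3 when each library was left out. Without control library 1 it was 4 with median-of-ratios scaling, 0 with the block and 1 with the macrophage covariate. The number of members called, which was 1 (Tmod4), became 0 with a pseudocount of 0.1, without a filter, with the 5 TPM filter, under which Tmod4 is not tested, and with the block, and without control library 1 it was 0 with the block and 0 with the covariate. It ranged from 0 to 1 when each library was left out, and control library 1 was the 1 library whose removal kept the call. The cause was not tested. The log2 difference of Tmod4 was 2.23 to 2.52 when each library was left out, 2.48 with the block, 2.07 after median-of-ratios scaling, and 3.68 and 1.10 with pseudocounts of 0.1 and 5. Median-of-ratios scaling moved the median of all genes from 0.46 to 0.018 and that of the members from 0.61 to 0.11. Leaving out each library gave member medians from -0.013 to 0.75, of which -0.013 was without control library 1, and 4 to 6 members with groups that do not overlap. Cd160 kept a negative difference, from -3.11 to -2.43, when each library was left out. Single members' values under other settings moved by less than their spread in 639 cases and by more in 18. The 639 include all 37 members without control library 1, so the count does not show that members were stable to that setting. Leaving that library out took Polr3c from 0.84 to -0.087, Cers2 from 1.04 to 0.027, and positive members from 34 to 17. Library numbers did not pair the libraries: same-numbered deviations correlated at -0.017, -0.093, -0.137 and -0.089, no library correlated best with its own number, and the member median with the replicate block was 0.67. Depth limits low members such as Tmod4, by an amount the TPM do not give.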

Other observations

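Inside the stretch 28 tested rows are no members, and because several RNA genes of near-identical sequence (tRNA genes n-THgtg6 to n-THgtg9 and n-TNgtt10 to n-TNgtt13, and the U1 genes Rnu1b1 and Rnu1b2) hold the same values, these are 21 distinct rows. Of the distinct rows 4 had groups that do not overlap, against 4.93% of all tested genes over 9 libraries, and the median log2 difference was -0.36 over 9 libraries and -0.25 over 8. Besides Mir8099-1 these were the histone genes H2ac20, H3c15 and H4c14, whose near-identical copies make their values uncertain. H2ac20 was at 25.76, 24.91, 20.52 and 26.15 TPM in the knockout libraries, against 80.94, 29.89, 40.92, 44.54 and 52.85 TPM in the control libraries. Ctss, the lysosomal protease cathepsin S of antigen-presenting cells, was at 1520.31, 1061.06, 1540.96 and 2007.49 TPM in the knockout libraries, against 82.26, 1248.02, 415.19, 745.7 and 431.01 TPM in the control libraries. Its groups overlapped through control library 2, with log2 differences of 1.81 and 1.22 over 9 and 8 libraries. Fcgr1, a macrophage marker gene in the same stretch, differed by 1.81 and 1.31. Pi4kb, a phosphatidylinositol kinase gene 1791.8 kb below Cd160 and outside the stretch, was at 9.08, 14.66, 10.09 and 9.47 TPM in the knockout libraries, against 0.79, 4.41, 8.32, 5.93 and 5.65 TPM in the control libraries. Its groups did not overlap, with log2 differences of 1.14 and 0.74. S100a11, also in the 2 Mb below the stretch, had groups that did not overlap but was lower in knockout. Its log2 differences were -0.68 and -0.40. Over all tested genes the share without overlap was 4.93% over 9 libraries.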
